A study of Mus musculus with 20 samples.

Results

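The comparison described here asks what anti-PD-1 antibody did to the tumor transcriptome of SCCVII tumors when its effect was averaged over every treatment it was combined with. The libraries were chosen by treatment alone: of 20 libraries in the study, the 16 that received no anti-CD8 were used, 8 with anti-PD-1 and 8 without. SCCVII is a mouse squamous cell carcinoma line used as a model of head and neck cancer, here grown under the skin of the flank of immunocompetent C3H/HeOuJ mice. The 8 libraries with anti-PD-1 came from 4 groups of 2: anti-PD-1 alone, APG-157 + anti-PD-1, the pair of antibodies (anti-PD-1 + anti-CTLA-4), and APG-157 with both antibodies, called the triple combination. The 8 without it came from the 4 matching groups: APG-157, anti-CTLA-4, APG-157 + anti-CTLA-4, and control. APG-157 is a botanical drug made from Curcuma longa that contains curcumin and was given in the chow, and the antibodies were injected into the peritoneum. By treatment label, each group with anti-PD-1 thus has a partner that differs only in this antibody. The 4 shared treatments (neither agent, APG-157, anti-CTLA-4, or both) are called backgrounds below. The 2 libraries of a group are called replicates A and B. The labels do not say that these are separate tumors, so every p-value measures only the spread between these libraries.

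PD-1 is an inhibitory receptor on activated T cells. When its ligands PD-L1 and PD-L2 bind it, the phosphatase SHP-2 is recruited and signalling from the T cell receptor and CD28 is damped. Antibodies to PD-1 block this contact, and they act on every cell that carries the receptor, which includes exhausted CD8 T cells and regulatory T cells, the Foxp3-expressing CD4 T cells that restrain other T cells. The antibody acts on the protein, so the transcript of its target is no check of the treatment labels.

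The promoters of 3 genes are shown first because Foxp3 stood first by p-value among all genes tested, and Ctla4 and Izumo1r are read out beside it as genes of regulatory T cells. The windows are the 250 bases before the annotated start, taken from RefSeq on GRCm38.p6, which is the C57BL/6J genome and not that of the C3H/HeOuJ host. The entry for Foxp3 is 1 of 2 annotated starts and lies at chrX:7579426-7579675 on the plus strand. Ctla4 lies at chr1:60908775-60909024 on the plus strand and Izumo1r at chr9:14903768-14904017 on the minus strand. All are written 5′ to 3′ along the gene, in lower case, with capitals for matches to the searched motifs.
Foxp3: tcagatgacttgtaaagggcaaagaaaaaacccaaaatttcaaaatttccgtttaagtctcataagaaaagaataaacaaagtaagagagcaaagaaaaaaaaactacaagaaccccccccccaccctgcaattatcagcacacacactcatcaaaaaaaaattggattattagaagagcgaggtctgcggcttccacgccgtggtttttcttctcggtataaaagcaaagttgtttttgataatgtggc
Ctla4: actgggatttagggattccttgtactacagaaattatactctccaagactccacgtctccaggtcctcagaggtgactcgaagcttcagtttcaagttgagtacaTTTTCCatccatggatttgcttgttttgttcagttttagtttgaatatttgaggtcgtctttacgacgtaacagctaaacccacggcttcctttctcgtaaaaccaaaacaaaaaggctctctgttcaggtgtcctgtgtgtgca
Izumo1r: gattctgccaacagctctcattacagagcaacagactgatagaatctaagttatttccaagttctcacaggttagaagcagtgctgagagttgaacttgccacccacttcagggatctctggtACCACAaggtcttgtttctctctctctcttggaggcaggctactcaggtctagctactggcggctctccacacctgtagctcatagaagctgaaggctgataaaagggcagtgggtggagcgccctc
The 4 motifs, searched on both strands, were TGTTTAC for forkhead factors such as Foxp3 itself, TGTGGT for Runx factors, TGANTCA for AP-1 and GGAAAA for NFAT. Ctla4 held 1 NFAT match, 145 bases before the start, and Izumo1r held 1 Runx match, 127 bases before it, both on the strand opposite the gene. The Foxp3 window held 0 matches. Over 32851 RefSeq promoter windows of the same length, 20.4% held the NFAT letters, 14% the Runx letters, 6.75% those of AP-1 and 3.17% those of the forkhead motif, so these matches are a description of the windows and mark no site.

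Values are expected counts per gene, estimated from mRNA libraries with totals of 43.9 to 70.1 (in units of 1e6), and levels are given as CPM (counts per 1e6 of the scaled library). Of the 54309 genes in the table, 19020 had enough counts to test. Some features of the libraries touch the results below. One is skeletal muscle RNA: the summed level of 36 muscle genes was 245 to 8631 CPM with anti-PD-1 (median 499) and 278 to 3479 CPM without it (median 318). Most of it was in 3 libraries, APG-157 + anti-PD-1 replicate A, the triple combination replicate A and anti-CTLA-4 replicate B, of which 2 received anti-PD-1 and 1 did not. Another is that the APG-157 + anti-CTLA-4 libraries differed from each other far less than any other pair, with a biological coefficient of variation of 4.22% against 20.8% to 46.8% in the other 7 groups. The labels call the samples head and neck cancer cells. The simple-epithelium keratins Krt8 and Krt18 were abundant, but markers of squamous epithelium were scarce. Krt14 reached at most 0.292 CPM with anti-PD-1 and 0.270 CPM without it, and Krt6b was at 0 in every library. RNA of immune, vascular and stromal cells was present throughout.

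No gene passed the test for an anti-PD-1 effect. edgeR's quasi-likelihood test with the other 2 agents as factors called 0 of 19020 genes (0%), where a call is an adjusted p under 0.05 by Benjamini-Hochberg, and the lowest adjusted p was 0.385. At an unadjusted p under 0.05 there were 2104 genes (11.1%), 1199 of them higher with anti-PD-1 (6.3%) and 905 lower (4.76%). DESeq2 on the same libraries called 70 genes at the same adjusted threshold, 59 higher and 11 lower, while limma with voom and sample quality weights called 0, with 4056 at an unadjusted p under 0.05. The median log2 fold change of all genes tested was -0.02, and 45.5% of them were above 0. The genes described below were therefore not called by edgeR. Their levels are given for each side, and where DESeq2 called a gene this is said. Each such gene described here missed the adjusted threshold under every other setting tried. In these bulk samples, fewer cells of a type and less RNA per cell cannot be told apart.

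Foxp3, the transcription factor that defines regulatory T cells, had the smallest p of all genes. It had between 1.06 and 4.59 CPM with anti-PD-1 (median 2.55), against 0.278 to 2.27 CPM without it (median 0.668). In all, 5 of the 8 libraries with anti-PD-1 lay above the highest library without it, and the groups overlapped through the other 3. The means were 2.66 ± 1.23 CPM with and 0.900 ± 0.678 CPM without anti-PD-1 (SD, n = 8 each), a log2 fold change of 1.83 (SE 0.35, adjusted p = 0.385 in edgeR). DESeq2 called it, with an adjusted p of 8.97e-04. Over 30 alternative settings, each listed with the processing, its log2 fold change was 1.3 at its lowest and 2.06 at its highest, and the adjusted p reached 0.958.

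The difference in Foxp3 was not the same size in every background. With neither other agent, anti-PD-1 libraries had 1.38 and 2.22 CPM and control libraries 1.56 and 2.27 CPM, a log2 fold change of -0.09 (SE 0.41). In that background the 2 sides overlapped. On APG-157 the values were 2.58 and 2.70 CPM with anti-PD-1 and 0.679 and 0.657 CPM without. In mice given anti-CTLA-4 they were 4.59 and 4.22 CPM with anti-PD-1 and 0.840 and 0.550 CPM without. With both other agents they were 2.53 and 1.06 CPM with anti-PD-1 and 0.278 and 0.364 CPM without. In these 3 backgrounds every library with anti-PD-1 was above every library without it, with log2 fold changes of 1.98, 2.66 and 2.48. Control libraries had the highest Foxp3 of the 8 without anti-PD-1 for replicate B and the next highest for replicate A. The anti-PD-1 difference was larger with anti-CTLA-4 than without it by 1.62 on the log2 scale (SE 0.42, unadjusted p = 0.0025 in edgeR), which did not pass adjustment (adjusted p = 1.00).

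Most genes on the regulatory T cell list lay the same way. Foxp3 is itself on that list and is among the 9 counted next. Of 12 genes listed, 11 could be tested and 9 of these were higher at an unadjusted p under 0.05 (81.8%, beside 6.3% of all genes), with a median log2 fold change of 1.16 and 6 of them higher in all 4 backgrounds, which held for 8.79% of all genes. Ikzf2, which encodes Helios, a factor of thymus-derived regulatory T cells, had 3.35 to 14.7 CPM with anti-PD-1 (median 6.46) and 2.18 to 7.21 CPM without (median 2.85). The groups overlapped, with 4 of the 8 libraries with anti-PD-1 above the highest without it, and the means were 8.26 ± 4.32 and 3.60 ± 1.81 CPM (SD, n = 8 each; log2 fold change 1.18, SE 0.30). Ccr8, a chemokine receptor of regulatory T cells inside tumors, was scarce on both sides, at 0.193 to 0.917 CPM with anti-PD-1 (median 0.392) and 0.0337 to 0.269 CPM without (median 0.125). Its log2 fold change was 1.84 (SE 0.44). DESeq2 called Ikzf2 and Ccr8, at adjusted p = 0.026 and 0.034.

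Ctla4, the other inhibitory receptor targeted in the study, had 0.790 to 7.19 CPM with anti-PD-1 (median 1.41) and 0.266 to 1.58 CPM without (median 0.942), a log2 fold change of 1.24 (SE 0.40). Il10, a cytokine that restrains inflammation, had a log2 fold change of 1.20, with medians of 0.653 CPM with and 0.343 CPM without anti-PD-1. The costimulatory receptors Icos and Tnfrsf4 had log2 fold changes of 1.16 and 0.84. The exception was Il2ra, the alpha chain of the interleukin 2 receptor, at -0.05. Izumo1r, the folate receptor 4 of regulatory and anergic CD4 T cells, was named after its values were seen. It had 0.135 to 1.49 CPM with anti-PD-1 (median 0.571) and 0.0177 to 0.369 CPM without (median 0.168), with 7 of 8 libraries above the highest without anti-PD-1, and DESeq2 called it at an adjusted p of 0.021.

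**Figure D1:**
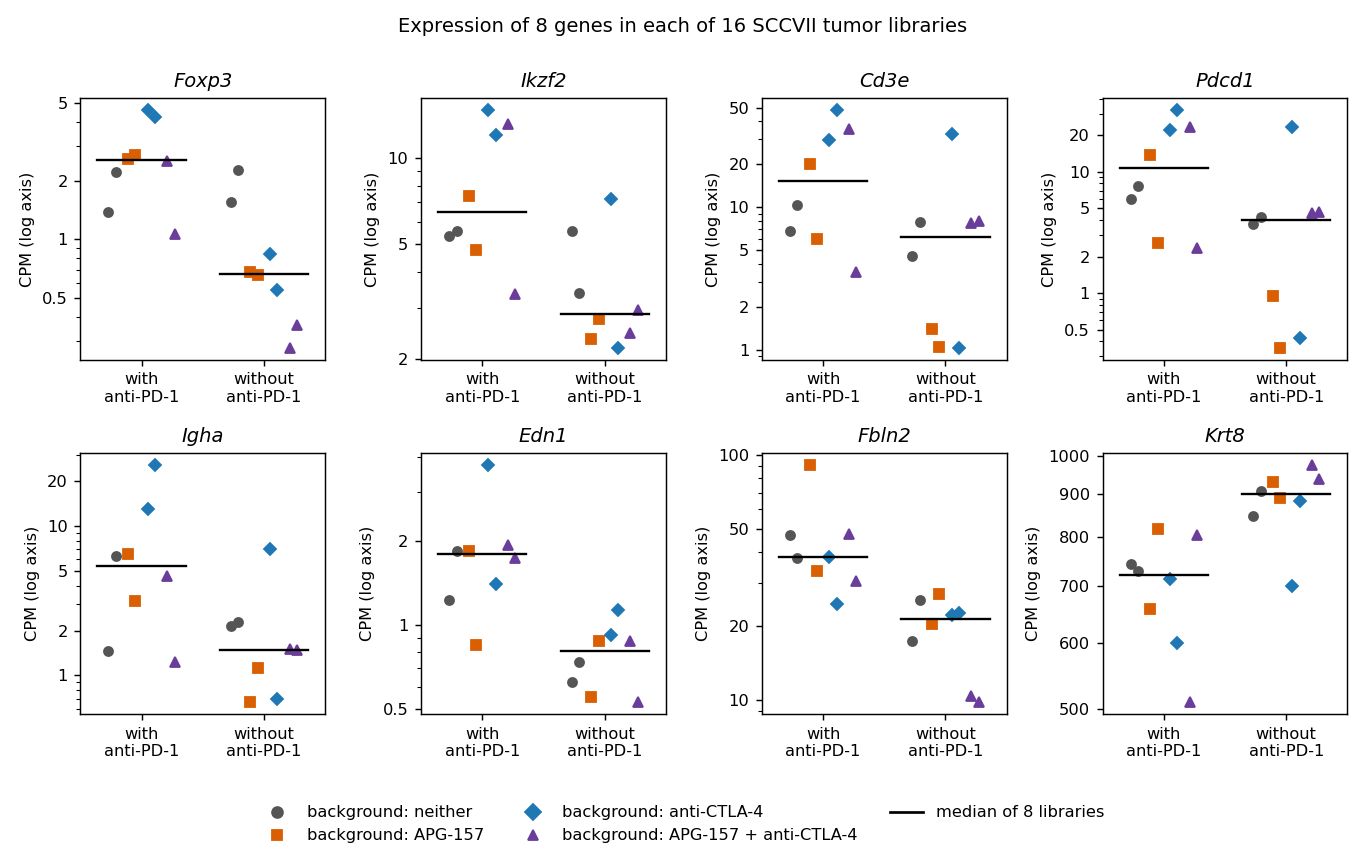
CPM of 8 genes (log axes) in each library, 8 with anti-PD-1 on the left of each panel and 8 without on the right, with the median of each side as a line and colors for the 4 backgrounds. Foxp3 had a median of 2.55 CPM with anti-PD-1 and 0.668 CPM without, 7 of 8 libraries with anti-PD-1 lay above every library without it for Edn1 and Fbln2, and Krt8 was the gene shown with the lower median, 722 CPM against 900 CPM.

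Most T cell genes also had higher means with anti-PD-1. Of 25 T cell genes, all tested, 20 were higher at an unadjusted p under 0.05 (80%) and 0 lower, with a median log2 fold change of 1.21, and 18 were higher in all 4 backgrounds. The summed level of the list was 105 to 587 CPM with anti-PD-1 (median 256) and 76.1 to 426 CPM without (median 141). The highest library without anti-PD-1 was anti-CTLA-4 replicate A, so the sides overlapped over most of the range.

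Cd3e, a chain of the T cell receptor complex, had 3.48 to 48.1 CPM with anti-PD-1 (median 15.2) and 1.03 to 32.5 CPM without (median 6.14). Only 2 libraries with anti-PD-1 lay above the highest without it, and the means of 19.98 ± 16.3 with and 8.02 ± 10.4 CPM without anti-PD-1 differed by less than the SD with anti-PD-1 (n = 8 each; log2 fold change 1.58, SE 0.65, adjusted p = 0.434 in edgeR). Cd8a, the coreceptor of cytotoxic T cells, had a log2 fold change of 1.66 (SE 0.71), with medians of 19.0 CPM with and 6.15 CPM without anti-PD-1. Cd4, the coreceptor of helper and regulatory T cells, had one of 1.21, with medians of 6.44 and 2.53 CPM. The members nearest to or below 0 included Trbc2, a constant region gene of the beta receptor chain (-0.14), and genes of naive T cells: Tcf7, Ccr7 and Il7r had log2 fold changes of -0.11, 0.25 and 0.22.

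Set against counts of T cell genes, Foxp3 went different ways in different backgrounds. There were 7.12 to 45.2 Foxp3 counts per 100 counts of Cd3e with anti-PD-1 (median 17.9) and 2.59 to 62.9 without (median 31.5). Per 100 counts of Cd4 the medians were 38.2 with anti-PD-1 and 37.1 without, and per 100 counts of Cd8a they were 16.9 and 30.9. In mice given APG-157 and anti-CTLA-4 all 3 ratios were higher with anti-PD-1 in both libraries, for Cd3e 7.12 and 30.6 against 3.61 and 4.52. With neither agent all 3 were lower with anti-PD-1 in both libraries, for Cd3e 20.3 and 21.6 against 34.3 and 28.7. On APG-157 the ratios to Cd3e and Cd8a were lower with anti-PD-1 in both libraries, for Cd3e 12.9 and 45.2 against 48.7 and 62.9. There the ratio to Cd4 overlapped. With anti-CTLA-4 all 3 ratios overlapped, for Cd3e 15.5 and 8.78 against 2.59 and 53.4. The differences between backgrounds were not tested. With the mean level of the T cell list added to the model as a covariate, 3 of the 11 regulatory T cell genes were higher at an unadjusted p under 0.05, with a median log2 fold change of 0.42. Under that setting 913 of the 19020 genes tested were at an unadjusted p under 0.05, higher and lower together. The T cell level was measured in the same libraries after treatment, and its part in the Foxp3 difference was not tested beyond this.

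**Figure D2:**
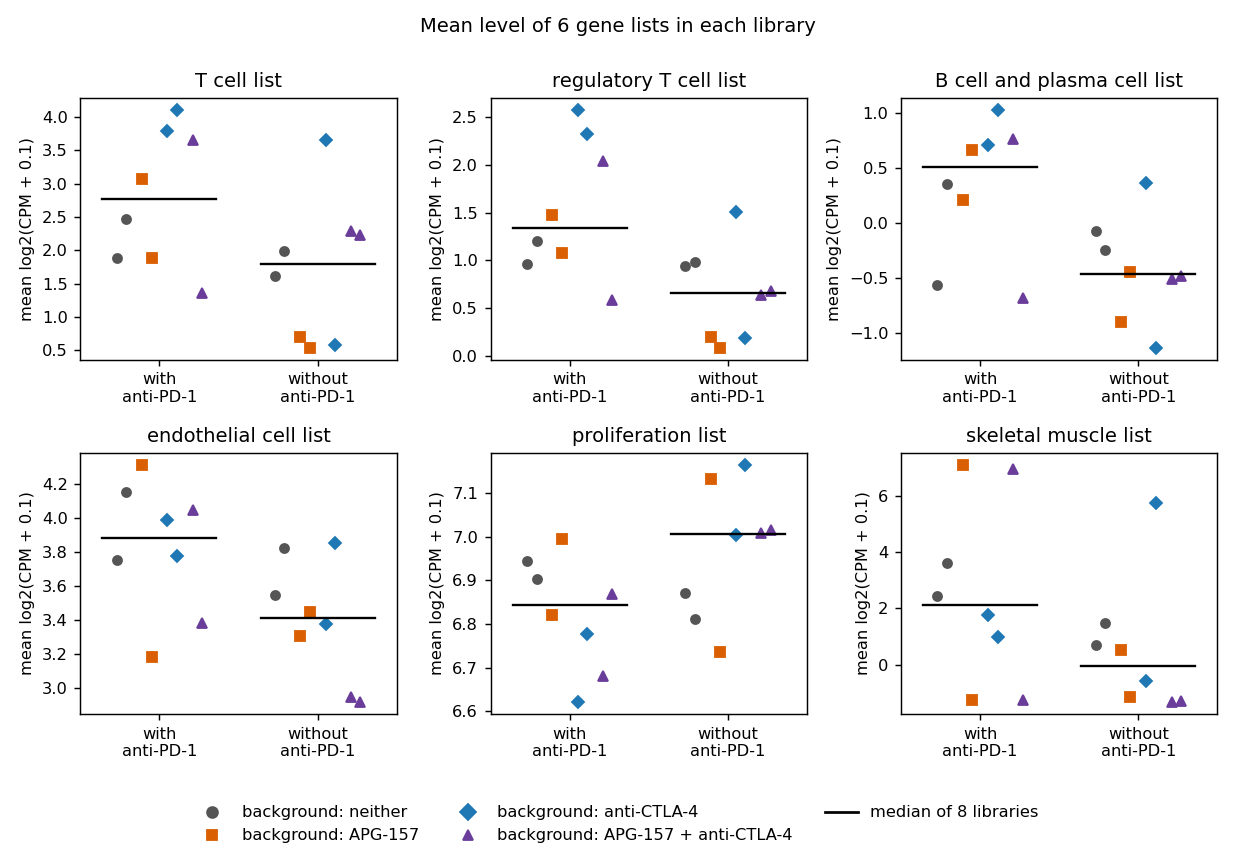
Mean log2(CPM + 0.1) of 6 gene lists in each library, with anti-PD-1 on the left of each panel and without on the right, medians as lines and colors for the 4 backgrounds. The sides overlap in every panel, and in the skeletal muscle panel 2 libraries with anti-PD-1 (7.10 and 6.94) and 1 without (5.72) stand far above the others, which lie between -1.33 and 3.60.

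The transcripts of the PD-1 pathway itself lay with the T cell genes. Of 15 genes for the receptor, its ligands and its signalling partners, 8 were higher at an unadjusted p under 0.05 (53.3%) and 0 lower, with a median log2 fold change of 0.72. Of the 15, 6 (Pdcd1, Cd28, Cd247, Lck, Zap70 and Prkcq) are T cell genes or encode proteins of T cell receptor signalling, and all 6 were among the 8. Pdcd1, which encodes PD-1, had 2.36 to 32.2 CPM with anti-PD-1 (median 10.6) and 0.354 to 23.6 CPM without (median 3.98). A single library with anti-PD-1 lay above the highest without it, and the means were 13.7 ± 11.1 and 5.31 ± 7.62 CPM (SD, n = 8 each; log2 fold change 1.72, SE 0.71, adjusted p = 0.434 in edgeR). Cd274, which encodes PD-L1, had medians of 20.2 CPM with and 14.2 CPM without anti-PD-1, with a log2 fold change of 0.72 and an SE of 0.54. Pdcd1lg2, the gene of PD-L2, was likewise at 0.72, and Ptpn11, the gene of SHP-2, at -0.07.

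Genes of exhausted and checkpoint-bearing T cells followed. Of 16 such genes, 8 were higher at an unadjusted p under 0.05 (50%), with a median log2 fold change of 0.61. Tox, the factor that sets the exhausted state, had 1.51 to 18.6 CPM with anti-PD-1 (median 6.71) and 0.266 to 9.70 CPM without (median 1.41), a log2 fold change of 2.17 (SE 0.72). Tigit, an inhibitory receptor shared by exhausted and regulatory T cells, had medians of 5.14 CPM with and 1.94 CPM without anti-PD-1. Lag3, an inhibitory receptor that binds MHC class II, was at 1.21.

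Cytotoxic effector genes lay mostly above 0, with 20 of 22 at a log2 fold change above 0 and 2 below. Of the 22, 8 were higher at an unadjusted p under 0.05 (36.4%), 4 were higher in all 4 backgrounds, and the median log2 fold change was 0.89. The lowest of the list was the granzyme gene Gzma, with medians of 4.62 CPM with and 6.71 CPM without anti-PD-1 (log2 fold change -0.18). Gzmb and the pore-forming gene Prf1 were at 0.67 and 0.68, with overlapping ranges of 4.96 to 82.6 CPM with and 3.06 to 34.7 CPM without anti-PD-1 for Gzmb. Of 10 natural killer cell genes tested, 4 were higher at an unadjusted p under 0.05 (40%, beside 6.3% of all genes).

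Genes induced by interferon gamma were all on one side of 0 but few were separated from the spread. All 25 had a log2 fold change above 0, the median was 0.74, and 2 were higher at an unadjusted p under 0.05 (8%, beside 6.3% of all genes). Ifng itself had 0.580 to 11.4 CPM with anti-PD-1 (median 2.03) and 0.101 to 6.05 CPM without (median 0.491), a log2 fold change of 1.41. Cxcl9, a chemokine that draws in T cells, had medians of 209 CPM with and 70.5 CPM without anti-PD-1. Its ranges of 41.3 to 863 CPM with and 14.5 to 478 CPM without anti-PD-1 overlapped between 41.3 and 478 CPM. Ido1, an enzyme that breaks down tryptophan, was 1 of the 2 at an unadjusted p under 0.05, with a log2 fold change of 1.52. For MHC class II genes the median was 1.02 and all 12 were above 0, with 1 higher at an unadjusted p under 0.05 (8.33%, beside 6.3% of all genes). All 18 MHC class I genes were above 0 too, with a median of 0.35 and 0 at an unadjusted p under 0.05. Higher in all 4 backgrounds were 2 of the 25 interferon gamma genes, 1 of the 12 class II genes and 6 of the 18 class I genes. This held for 8.79% of all genes. H2 genes differ between the C57BL/6J reference and C3H mice and share reads with near-identical copies, so single members such as H2-K1 (2963 ± 818 CPM with and 2330 ± 916 CPM without anti-PD-1) are uncertain.

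Type I interferon genes had small differences, many of them in every background. Of 22, 5 were higher at an unadjusted p under 0.05 (22.7%), 11 were higher in all 4 backgrounds, and the median log2 fold change was 0.37. Oas2, an antiviral enzyme that senses double-stranded RNA, had 12.7 to 25.5 CPM with anti-PD-1 (median 17.1) and 7.43 to 20.5 CPM without (median 12.1), a log2 fold change of 0.58.

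Antibody genes were higher with anti-PD-1, while B cell surface and lineage genes lay on both sides of 0. Of 22 genes of B cells and plasma cells, 21 were tested, 10 were higher at an unadjusted p under 0.05 (47.6%) and 0 lower, with a median log2 fold change of 0.98. The 10 were immunoglobulin genes, Jchain and Mzb1, which mark antibody-secreting cells. Of these, Mzb1, Ighg3 and Iglc1 were scarce. Their highest counts were 28, 150 and 42 with anti-PD-1, and 13, 13 and 11 without it. These genes thus entered the test only through the side where they were high. The B cell surface and lineage genes Ms4a1, Cd79a and Pax5 had log2 fold changes of -0.30, -0.40 and 0.48. Jchain, which joins the units of secreted IgA and IgM, had 0.572 to 8.86 CPM with anti-PD-1 (median 2.36) and 0.304 to 2.93 CPM without (median 0.740). Only 2 libraries with anti-PD-1 lay above the highest without it, though the mean was higher in all 4 backgrounds (log2 fold change 1.73, SE 0.45). Igha, the constant region of IgA, was at 1.83 (SE 0.52) and Igkc, the kappa light chain, at 1.93 (SE 0.63). DESeq2 called Jchain and Igha, at adjusted p = 0.026 and 0.029. Immunoglobulin constant genes share sequence with each other and vary between mouse strains, which makes the split among them uncertain.

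Macrophage genes lay close to 0, while some dendritic cell and chemokine genes were higher. Of 20 macrophage genes, 0 were higher and 1 was lower at an unadjusted p under 0.05, with a median log2 fold change of 0.09, and their summed level had medians of 5666 CPM with and 5578 CPM without anti-PD-1. Of 14 dendritic cell genes, 4 were higher at an unadjusted p under 0.05 (28.6%, beside 6.3% of all genes). Among them were Clec9a and Xcr1, the markers of the cross-presenting subset, at 1.25 and 0.87. The median log2 fold change of the dendritic cell list was 0.40, with 10 members above 0 and 4 below, the lowest at -0.14. Of its 14 members, 3 were higher in all 4 backgrounds, beside 8.79% of all genes. Of 27 chemokine genes tested, 7 were higher at an unadjusted p under 0.05 (25.9%). One of these, Cxcl3, a neutrophil-attracting chemokine, was nearly absent: it had 70 and 18 counts in 2 libraries with anti-PD-1 (anti-PD-1 + anti-CTLA-4 replicate A and anti-PD-1 replicate B) and 0 to 2 counts in the other 14 libraries, so that it entered the test only through the side where it was high.

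**Figure D3:**
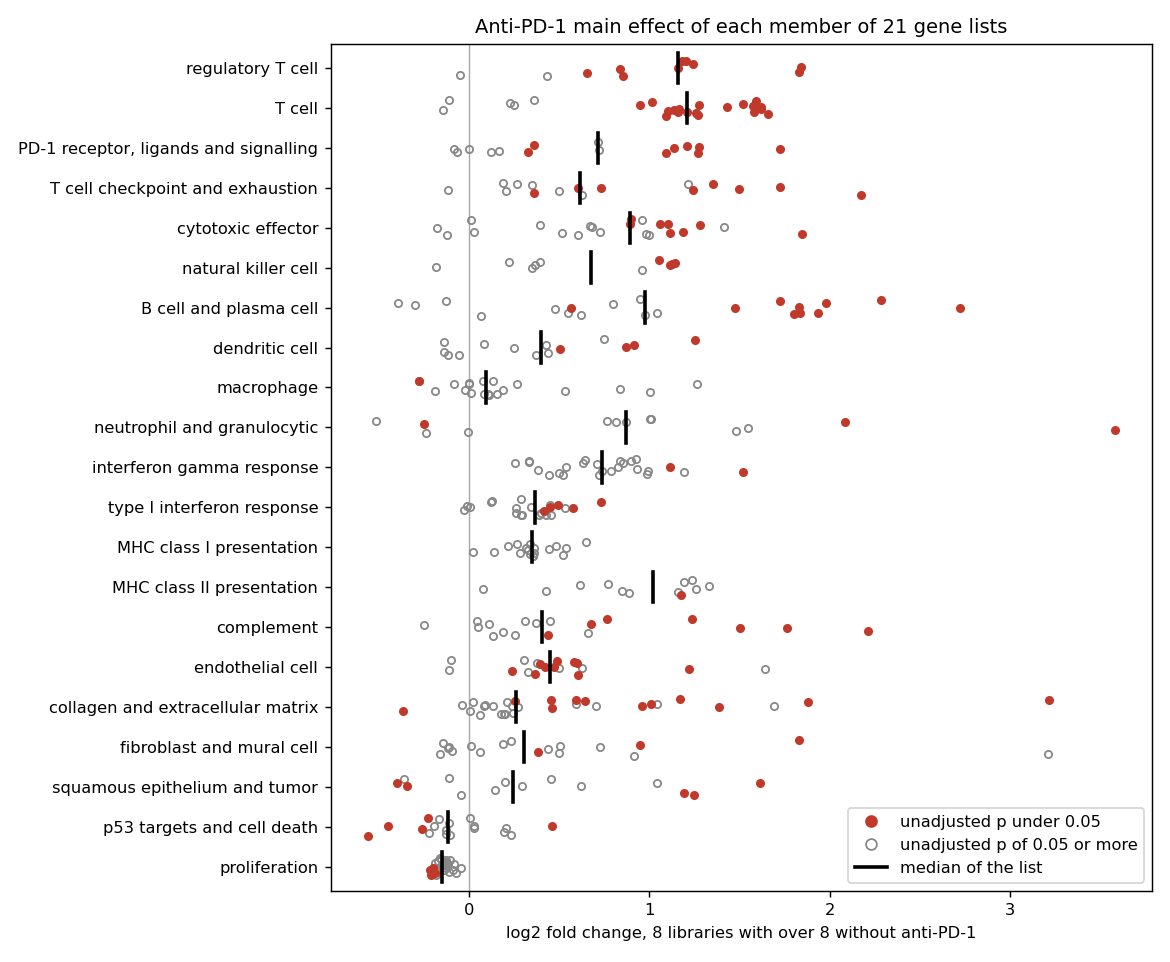
Log2 fold change (with over without anti-PD-1, all 16 libraries) of every tested member of 21 gene lists, with filled points for an unadjusted p under 0.05, open points for the rest, and a bar at each list's median. Medians lay at 1.21 for T cell genes, 1.16 for regulatory T cell genes and 0.45 for endothelial genes, against 0.09 for macrophage genes and -0.15 for proliferation genes.

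Blood vessel genes formed a set of small differences seen in nearly every background. Of 18 endothelial genes, 10 were higher at an unadjusted p under 0.05 (55.6%), 0 were lower, 13 were higher in all 4 backgrounds, and the median log2 fold change was 0.45. Pecam1, the junction protein CD31, had 39.5 to 91.8 CPM with anti-PD-1 (median 69.9) and 30.9 to 67.7 CPM without (median 46.8). Among libraries with anti-PD-1, 4 of 8 were above the highest without it, and the log2 fold change was 0.60 (SE 0.16, adjusted p = 0.385 in edgeR), with 0.25, 0.56, 0.59 and 1.01 in the backgrounds of neither agent, APG-157, anti-CTLA-4 and both. Vwf, the clotting factor stored by endothelium, had medians of 2.45 CPM with and 1.24 CPM without anti-PD-1 (log2 fold change 1.22).

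Other vessel-related genes that were not on the list ranked near the top of all genes by p. Edn1, the vessel-constricting peptide endothelin 1, had 0.847 to 3.75 CPM with anti-PD-1 (median 1.79) and 0.528 to 1.13 CPM without (median 0.807). With anti-PD-1, 7 of the 8 libraries were above every library without it, and the log2 fold change was 1.19 (SE 0.24, adjusted p = 0.385 in edgeR), with 1.17, 0.90, 1.32 and 1.37 in the 4 backgrounds in the same order. Podxl, a surface sialomucin of endothelium, had 15.1 to 25.4 CPM with anti-PD-1 and 11.9 to 17.9 CPM without (log2 fold change 0.49, SE 0.11). Pdgfd, a growth factor for mural cells, had 1.15 to 3.74 CPM with anti-PD-1 (median 2.48) and 0.858 to 1.49 CPM without (median 1.09), again with 7 of 8 libraries above the highest without. DESeq2 called Edn1, Pdgfd, Podxl, Pecam1 and Adgrl4, a receptor of endothelial cells.

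Matrix genes of the stroma were also higher in part. Of 30 collagen and matrix genes, 11 were higher at an unadjusted p under 0.05 (36.7%) and 1 was lower, with a median log2 fold change of 0.26. Fbln2, a fibulin of elastic fibers and vessel walls, had 24.5 to 91.1 CPM with anti-PD-1 (median 38.2) and 9.80 to 27.1 CPM without (median 21.3). Here 7 of 8 libraries with anti-PD-1 were above all 8 without it, with a log2 fold change of 1.17 (SE 0.25, adjusted p = 0.385 in edgeR) and 0.98, 1.39, 0.48 and 1.95 in the 4 backgrounds. DESeq2 called it, at an adjusted p of 0.0041, and Col11a1 below at 0.016. Dcn, a small proteoglycan that binds collagen, had medians of 68.8 CPM with and 34.8 CPM without anti-PD-1 (log2 fold change 1.39). Col1a1, the main fibrillar collagen chain, averaged 1474 ± 414 CPM with and 1003 ± 419 CPM without anti-PD-1 (SD, n = 8 each; log2 fold change 0.59). Col11a1, a minor fibrillar collagen, had the largest fold change of the list, 3.21, from medians of 1.26 CPM with and 0.170 CPM without. Col18a1, a collagen of vessel and epithelial basement membranes, was the member that was lower, at 1289 ± 294 CPM with and 1649 ± 318 CPM without (log2 fold change -0.36).

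Complement genes were higher in 7 of 18 cases at an unadjusted p under 0.05 (38.9%), with a median log2 fold change of 0.40. C1s1, a protease that starts the classical pathway, had 9.98 to 94.7 CPM with anti-PD-1 (median 44.7) and 2.38 to 29.7 CPM without (median 7.99), a log2 fold change of 2.21 (SE 0.56). In this gene 4 libraries with anti-PD-1 lay above the highest without it and the other 4 overlapped with that side. Serping1, the inhibitor of the same protease, had medians of 22.5 CPM with and 11.9 CPM without anti-PD-1 (log2 fold change 1.76). DESeq2 called C1s1 at an adjusted p of 0.019. C1s1 shares reads with its near-identical copy C1s2, so the level of each is uncertain.

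The genes named here that were lower with anti-PD-1 differed by little. Krt8, a keratin of simple epithelium, had 509 to 819 CPM with anti-PD-1 (median 722) and 700 to 977 CPM without (median 900). Of the 8 libraries without anti-PD-1, 7 were above the highest with it, and the means of 697 ± 105 and 885 ± 84.3 CPM (SD, n = 8 each) gave a log2 fold change of -0.34 (SE 0.09, adjusted p = 0.385 in edgeR), with -0.25, -0.30, -0.27 and -0.54 in the 4 backgrounds. A lower mean in all 4 backgrounds was found for 9.5% of all genes. Krt18, its partner in the filament, was at -0.40 (SE 0.12). Of 18 p53 and cell death genes, 4 were lower at an unadjusted p under 0.05 and 1 was higher. Among all genes 4.76% were lower and 6.3% higher. Unc5a, a netrin receptor, had 7.26 to 12.9 CPM with anti-PD-1 and 8.47 to 19.5 CPM without (log2 fold change -0.61), and Tgif2, a repressor of TGF-β target genes, had 3.77 to 6.13 CPM with and 6.05 to 8.30 CPM without (log2 fold change -0.43). DESeq2 called Unc5a and Tgif2 at adjusted p = 0.022 and 0.012.

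All 30 of the proliferation genes had a log2 fold change below 0, but the differences were small. Their median was -0.15, and 4 were lower at an unadjusted p under 0.05, beside 4.76% of all genes. The summed level of the list was 4141 to 5259 CPM with anti-PD-1 (median 4667) and 4211 to 5771 CPM without (median 5368). Mki67, the proliferation marker Ki-67, had medians of 432 CPM with and 484 CPM without anti-PD-1, and its log2 fold change of -0.10 lay within the spread. Proliferation and keratin genes are levels relative to each library's total, and the summed T cell and muscle levels given above had higher medians with anti-PD-1. Their part in these lower levels was not tested.

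Complete separation of the 8 and 8 libraries was rare. It held for 1 gene that was higher (0.00526% of genes tested) and 1 that was lower (0.00526%). Adal, an adenosine deaminase-like enzyme, had 3.69 to 5.06 CPM with anti-PD-1 and 3.34 to 3.52 CPM without, and DESeq2 called it at an adjusted p of 0.0081. Cdh24, a cadherin named after its values were seen, had 4.12 to 6.03 CPM with anti-PD-1 and 6.12 to 7.64 CPM without.

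Whether the anti-PD-1 difference depended on the other agents was tested gene by gene. For anti-CTLA-4, 0 genes were called by edgeR and 634 (3.33%) had an unadjusted p under 0.05, with 11 called by DESeq2. For APG-157, 0 genes were called and 1826 (9.6%) had an unadjusted p under 0.05, with 80 called by DESeq2. The gene with the smallest p for APG-157 was Ntng1, netrin G1, a membrane-anchored guidance protein, with a difference of 1.83 on the log2 scale (adjusted p = 0.384 in edgeR). Egr1, an immediate early transcription factor, followed at 1.20 and the zinc-sensing receptor Gpr39 at -1.60, both with an adjusted p of 0.456.

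Within single backgrounds edgeR called 0 genes in 3 comparisons and 2 in the remaining one. The genes at an unadjusted p under 0.05 were 160 (0.841%) for anti-PD-1 against control, 717 (3.77%) for APG-157 + anti-PD-1 against APG-157, 2698 (14.2%) for anti-PD-1 + anti-CTLA-4 against anti-CTLA-4, and 3089 (16.2%) for the triple combination against APG-157 + anti-CTLA-4. DESeq2 called 2, 21, 375 and 651 genes in these comparisons. The 2 genes called by edgeR (0.0105%) were higher in the triple combination than on APG-157 + anti-CTLA-4. Ntng1 had 2.70 and 2.73 CPM in the triple combination and 0.542 and 0.474 CPM on APG-157 + anti-CTLA-4 (log2 fold change 2.41, SE 0.28, adjusted p = 0.026 in edgeR). Cd200, a surface protein that inhibits myeloid cells through its receptor, had 42.5 and 38.6 CPM in the triple combination and 13.9 and 15.1 CPM on APG-157 + anti-CTLA-4 (log2 fold change 1.49, SE 0.17, adjusted p = 0.026 in edgeR). Across the whole design, the 14 libraries outside APG-157 + anti-CTLA-4 had 29.6 to 58.7 CPM of Cd200 and 0.895 to 4.91 CPM of Ntng1. For both genes the APG-157 + anti-CTLA-4 pair was thus the low one. That pair is also the one whose libraries barely differ, and with its libraries summed into 1 sample edgeR called 0 genes. The count was also 0 with the muscle level as a covariate, with the replicate letter as a block, without the triple combination replicate A, and without either library of the anti-CTLA-4 group, which is not in the comparison but shares its estimate of spread. Neither Ntng1 nor Cd200 was called without replicate A or without replicate B of the pair, or without the triple combination replicate B.

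**Figure D4:**
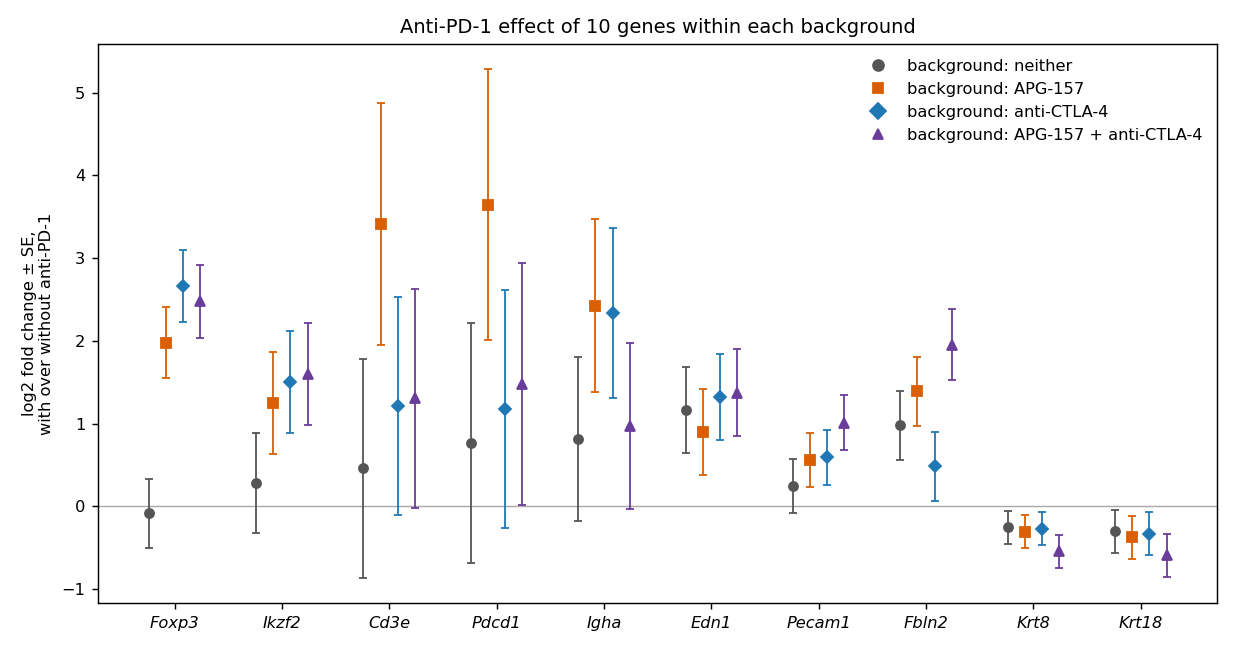
Log2 fold change ± SE of 10 genes, with over without anti-PD-1, in each of the 4 backgrounds (2 libraries against 2 in each). Foxp3 lies at -0.09 with neither other agent and between 1.98 and 2.66 in the other 3 backgrounds, while Edn1 lies between 0.90 and 1.37 and Krt8 between -0.54 and -0.25 in all 4.

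How far the lists rested on the 3 muscle-rich libraries was checked by leaving these out. Without them, 3 of 25 T cell genes and 4 of 11 regulatory T cell genes were higher at an unadjusted p under 0.05, with median log2 fold changes of 0.54 and 0.62, and the background fell to 3.03% of all genes. For B and plasma cell genes 5 were higher (median 0.68), for endothelial genes 4 of 17 tested (median 0.26), for complement genes 4 (median 0.06), for collagen and matrix genes 12 (median 0.34), and for cytotoxic genes 0 (median 0.28). With the muscle level as a covariate and all 16 libraries kept, the T cell median was 0.92 with 3 genes higher, the regulatory T cell median 0.90 with 6 and the endothelial median 0.25 with 4, beside 3.24% of all genes. The muscle genes had a median log2 fold change of 3.18, with 0 of 36 at an unadjusted p under 0.05 and 2 higher in all 4 backgrounds.

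Single libraries also moved the counts. Leaving out each library in turn, the number of T cell genes higher at an unadjusted p under 0.05 ran from 10 to 20 and was lowest without APG-157 + anti-PD-1 replicate A, with 11 without anti-PD-1 + anti-CTLA-4 replicate B. For endothelial genes it ran from 5 to 13 and was also lowest without APG-157 + anti-PD-1 replicate A. For B and plasma cell genes it ran from 5 to 12, lowest without anti-PD-1 + anti-CTLA-4 replicate B. Among the lists named here, the count for regulatory T cell genes varied least, from 7 to 9 with medians of 0.93 to 1.27. That list is also the shortest of them, with 11 genes tested, so its count has less room to move. The total over all tested genes, higher and lower together, moved as well, between 1259 and 2737. It was 2104 with every library kept, 1462 without APG-157 + anti-PD-1 replicate A and 1606 without anti-PD-1 + anti-CTLA-4 replicate B. How far the drops in the lists went beyond this shift was not tested.

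**Figure D5:**
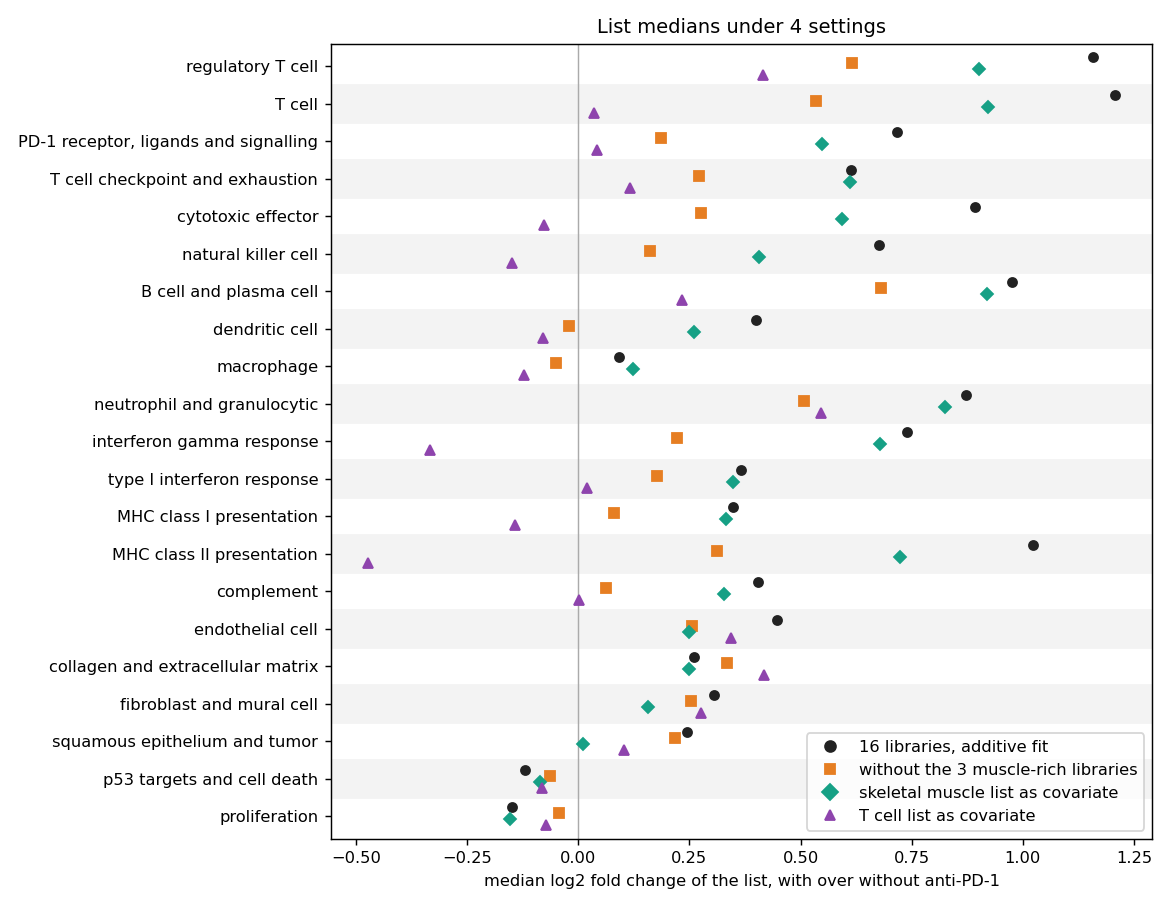
Median log2 fold change of gene lists, with over without anti-PD-1, under 4 settings: all 16 libraries, without the 3 muscle-rich libraries, with the muscle level as a covariate and with the T cell level as a covariate. The T cell list median is 1.21, 0.54, 0.92 and 0.04 under these settings, and that of regulatory T cell genes is 1.16, 0.62, 0.90 and 0.42. The T cell covariate is the mean of the T cell list itself, so the 0.04 lies near 0 by construction.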

How the data were processed

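The authors trimmed reads with Trimmomatic 0.39, checked them with FastQC and estimated transcripts with Salmon (1.5.0 in the submitters' processing notes) on GRCm39, and the deposited gene table holds expected counts with no scaling for depth (71.5% of values are whole). These were rounded here to whole counts. A second deposited table of log2 normalized values was not used. Library totals, 43.9 to 70.1 in units of 1e6, set the counting precision. Groups were taken from the treatment labels.

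Genes were kept by filterByExpr (minimum count 10, minimum total 15 over 8 groups), scaled by TMM and fitted in edgeR 4.0.16 (quasi-likelihood, robust) with the 3 agents as additive factors (12 residual degrees of freedom, biological coefficient of variation 35.6%). Interactions and within-background contrasts came from a fit of the 8 group means (8 residual degrees of freedom, 33.1%). P-values were adjusted by Benjamini-Hochberg over 19020 genes and called under 0.05, with no fold minimum. Other tools were limma 3.58.1, DESeq2 1.42.0 and R 4.3.3, with Python 3.11.15 and matplotlib 3.10.9 for figures. The fit was tested on simulated data.

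The 37 gene lists (635 distinct genes, 1 not matched) and the members were chosen with earlier results of these data known. They are described by counts and medians, with no set test. Named genes were any called gene, the 12 in each direction with the smallest p, a symbol and a mean of at least 1 CPM, fixed immune genes, the most abundant members of each list and those at an unadjusted p under 0.05, and leading interaction genes. Some genes named by this rule are not reported here. Izumo1r and Cdh24 were added after their values were seen. Alternatives were RLE factors, no filter, a mean of 1 CPM, a log2 fold minimum of 1 or 2, DESeq2, limma voom, the replicate letter as a block, other factor codings, a muscle covariate, all 20 libraries, no muscle-rich libraries, a summed APG-157 + anti-CTLA-4 pair and each library left out. The T cell covariate and the alternatives for single backgrounds were chosen after seeing the data.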

Additional observations from a re-analysis of the deposited data

Results flagged for a closer look

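Within the 8 libraries with or the 8 without anti-PD-1, a library that stood apart from the others by Dixon's gap criterion was found in 9 of 184 gene and list groups checked, and chance alone sets apart about 1 in 20. Values are log2(CPM + 0.1), as means over the list for lists. Among libraries with anti-PD-1, the triple combination replicate A was low for Mcm2, a helicase subunit of DNA replication (6.458, next 6.662). Anti-PD-1 + anti-CTLA-4 replicate A was high for matrix metalloproteinases and inhibitors (5.564, next 5.094) and for targets of the oxidative stress factor NRF2 (6.226, next 5.928). Among libraries without anti-PD-1, anti-CTLA-4 replicate A was low for Krt8 (9.451, next 9.728) and high for chemokines (3.732, next 3.131). Anti-CTLA-4 replicate B was high for skeletal muscle genes (5.724, next 1.487). APG-157 replicate A was high for nerve and Schwann cell genes (1.432, next 1.012) and low for immediate early genes (4.304, next 4.636), and APG-157 replicate B was high for cartilage and bone genes (3.168, next 2.557).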

How the results depend on the processing

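The edgeR count of 0 genes for anti-PD-1 stayed at 0 under every alternative run except DESeq2, which called 70. For the interaction with anti-CTLA-4 (0), the count was 331 without a low-count filter, 11 in DESeq2 and 0 to 2 when each library was left out. For the interaction with APG-157 (0) it was 1113 without a filter, 80 in DESeq2, 1 with the muscle covariate and 0 to 2 with a library left out. Without a filter, the 4 within-background comparisons gave 245 (anti-PD-1 against control), 1115 (on APG-157), 1442 (with anti-CTLA-4) and 1777 (with both), and DESeq2 gave 2, 21, 375 and 651 in the same order, against 0, 0, 0 and 2. Leaving out each library gave 0 to 1, 0 to 1, 0 to 7 (highest without anti-CTLA-4 replicate A) and 0 to 25 (highest without APG-157 + anti-PD-1 replicate B, and 0 without the triple combination replicate A or either anti-CTLA-4 library). With anti-CTLA-4 the muscle covariate gave 1. With both agents it gave 0, the replicate block 0, the summed pair 0, a mean of at least 1 CPM 8 and a log2 fold minimum of 2 gave 1. The replicate letters were not used as pairs: over 28 pairs of groups, same-letter deviations correlated between -0.392 and 0.798 (median -0.02), and the replicate block gave 0 calls for anti-PD-1, with 2111 genes at an unadjusted p under 0.05. That number was 913 with the T cell covariate, 989 without the muscle-rich libraries and 1207 with the muscle covariate, and ran from 1259 (without the triple combination replicate A) to 2737 with each library left out. Of 55 genes, 11 changed sign under some alternative. With the T cell covariate these were Cd274 (-0.58), Cd4 (-0.20), Lag3 (-0.17), Gzmb (-0.036), Prf1 (-0.085), Ifng (-0.44), Cxcl9 (-0.88), H2-K1 (-0.11), Cd74 (-0.55) and Mki67 (0.071). Mki67 was at 0.061 without the muscle-rich libraries. Gzma was at 0.18 without the APG-157 + anti-CTLA-4 background and ran from -0.38 to 0.085 with each library left out, above 0 without replicate B of the triple combination (0.011) and without APG-157 replicate A. Where a value gives no cause, the cause was not tested.

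With 2 libraries per group, the absence of a call shows no equality. Scarce transcripts such as Ccr8 rest on few counts.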

Other observations

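Xist, the RNA that coats the inactive X chromosome, had 2.98 CPM in replicate A of the triple combination and 80.2 to 180 CPM in the other 15 libraries, while the Y-linked genes Ddx3y and Eif2s3y reached at most 0.0364 CPM in all 16. These genes were chosen after their values were seen. Trbv13-2, one of the variable gene segments from which T cell receptor beta chains are assembled, also looked at afterwards, had 0.0790 to 2.54 CPM with anti-PD-1 (median 0.541) and 0.0169 to 0.287 CPM without (median 0.112), a log2 fold change of 2.57 (adjusted p = 0.385 in edgeR). It was called by DESeq2 and under no other setting. Reads of such segments can be shared with near-identical copies.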
